A study of Homo sapiens with 7 samples.

Results

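Peaks of N6-methyladenosine (m6A) that are broken into 3 or more blocks were described in HEK-293T, an established line from human embryonic kidney. A deposited peak is a list of blocks, the pieces of 1 peak that are separated by gaps in the genome. All peaks with at least 3 blocks were taken from the 4 deposited peak lists after exact duplicate lines had been removed, which gave 1890 of 59659 peaks. The remaining lists consist of 8113 peaks of 2 blocks and 49656 peaks of 1 block. The rule used only the number of blocks.

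The m6A-ORL libraries were made by chemical labelling: fragmented RNA went through NO/O2, TDO and the biotin-bearing probe BA, was bound to streptavidin beads and was released with DTT. The MeRIP libraries were made by capturing fragmented RNA with an antibody against m6A. Each method has 2 captured libraries, and the labels give total RNA for m6A-ORL replicate 1 and polyA RNA for m6A-ORL replicate 2 and both MeRIP replicates. The protocol text, in contrast, describes oligo(dT) selection with no exception. All come from the same unmodified cell line, the series sets the chemical against the antibody method, and no label says whether replicates were separate cultures. RNA type and replicate cannot be told apart within m6A-ORL, and a p-value here reflects no more than how far these libraries vary, possibly for technical reasons.

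In a spliced RNA, exons that lie far apart in the genome are joined, so a stretch of RNA around an m6A can cover several exons. m6A is placed on nascent RNA by the METTL3 and METTL14 methyltransferase complex and is best known for its density in long internal exons and around stop codons, where the last exon is usually long. Exon junctions and the protein complex deposited on them are known to keep m6A away from short internal exons. A peak with 3 or more blocks contains at least 1 whole internal block, bounded by a gap on both sides, and it cannot lie within 1 block.

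The first question was what a gap between blocks is. No genome sequence was used here, but RefSeq promoter windows (GRCh38.p14, the hg38 build of the lists; 250 bases before to 50 after each gene start) hold 91 of the 3018 distinct gap starts of these peaks. Of the 91, 88 (96.7%, 95% interval 90.7 to 99.3) opened with GT, the usual first bases of an intron, 3 with GC, a rarer intron start, and 0 with any other pair of bases, for which the exact interval reaches up to 3.97%. GT made up 4.62% of all dinucleotides in the 35116 windows. For peaks of 2 blocks, 196 of 202 gap starts read GT, 4 read GC and 2 read neither. The sequences below show the last 8 bases of a block and the first 12 of the gap, with the first gap dinucleotide in capitals. They are examples and not all gap starts of their kind: PPP1R10 and PTP4A2 have a gap listed by both methods, HSPD1 one in both m6A-ORL lists, SCAF1 and RPS21 are genes taken up again below, and CUL1, a scaffold of ubiquitin ligases, shows 1 of the 3 GC starts.
HSPD1, chr2:197499987-197500006, minus strand: ctgcgcggGTagggaggggc
PPP1R10, chr6:30617212-30617231, minus strand: gtttagagGTaagtttgcct
PTP4A2, chr1:31937975-31937994, minus strand: tcgccagcGTgagtgcgccc
SCAF1, chr19:49642235-49642254, plus strand: gcggcgggGTaagatggcgg
RPS21, chr20:62387129-62387148, plus strand: ggcagcagGTgtggcgcgcg
CUL1, chr7:148698271-148698290, plus strand: ggttccagGCaagctggggg
The SCAF1 gap was in both MeRIP lists, that of RPS21 in m6A-ORL replicate 2 and that of CUL1, 238 nt long, in MeRIP replicate 2. The HSPD1 gap was in both m6A-ORL lists, that of PPP1R10 in m6A-ORL replicate 1 and both MeRIP lists, and that of PTP4A2 in m6A-ORL replicate 2 and MeRIP replicate 2.

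The far ends of gaps were readable away from gene starts where a microRNA hairpin lay in the gap. Of 3039 distinct gaps, 13 (0.428%) held a RefSeq hairpin of the same strand, and for 2-block peaks 26 of 5665 (0.459%) did. The 13 gaps held 17 hairpins, of which 6 ended on the last base of the gap, and all 6 ended in AG, the usual last bases of an intron. The last 20 hairpin bases are given for the 5 in named genes, with that dinucleotide in capitals. They show gap ends away from gene starts, but only for hairpins that end with their gap, so not gap ends in general. These genes, and HUWE1, NCL, PRRC2B and HMGB1 below, were chosen after their gaps had been seen (MYH9 apart).
MIR6798 in RUVBL2, chr19:49009953-49009972, plus strand: uaccccccaucccccuguAG
MIR4747 in UHRF1, chr19:4932721-4932740, plus strand: ggcccgggcuuuccucccAG
MIR6775 in SLC7A5, chr16:87834592-87834611, minus strand: ggcccuguccucugccccAG
MIR6889 in RANGAP1, chr22:41252992-41253011, minus strand: ucugugccccuacuucccAG
MIR6819 in MYH9, chr22:36286847-36286866, minus strand: agccucuguccccaccccAG
The RUVBL2 gap is 90 nt long and is filled for the most part by MIR6798, a 67-nt hairpin. The first 4 of these gaps were listed in m6A-ORL replicate 2 and the MYH9 gap in MeRIP replicate 1. The 2461-nt gap of HUWE1, a ubiquitin ligase gene, in m6A-ORL replicate 2 contained both MIR98 and MIRLET7F2, members of the let-7 family, whose mature forms share the seed shown in capitals.
miR-98-5p, chrX:53556299-53556320, minus strand: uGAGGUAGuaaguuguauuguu
let-7f-5p, chrX:53557246-53557267, minus strand: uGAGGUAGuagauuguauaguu
Only hairpins wholly inside a gap were taken, so it follows from that choice that the blocks lie on either side of the microRNA gene. Hairpins overlapped by blocks were not counted.

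A second kind of gap end was found at gene starts. Of the 186 distinct gap ends inside promoter windows, 16 (8.60%) read AG, against 7.26% of all window dinucleotides being AG. For 78 of the 186 (41.9%, 34.8 to 49.4), the next block began exactly on a RefSeq gene start, and for 157 (84.4%) it began within 50 nt of one. Among 2-block peaks 165 of 423 (39.0%) began exactly on a start. In the 78, the preceding block lies upstream of that start, and the gap closes on the start itself. The 2 examples below show the last 12 gap bases in lower case and the first 8 block bases in capitals.
NCL, chr2:231464477-231464496, minus strand: gtctttcgcctcAGTCTCGA
PRRC2B, chr9:131394081-131394100, plus strand: gcggcgagacagGCGCCGAG
In NCL, the nucleolin gene, a gap of 18199 nt ended on the gene start in both m6A-ORL lists and in MeRIP replicate 1, with the preceding block beyond it. In PRRC2B, an RNA-binding protein gene, a gap of 20361 nt ended in AG, 7 nt inside the gene start, in m6A-ORL replicate 2 and both MeRIP lists. Windows cover only the surroundings of gene starts, so these shares do not describe gap ends in general. Among members with a named gene, 16 of 99 (16.2%, 9.53 to 24.9) and 9 of 408 (2.21%) in m6A-ORL replicates 1 and 2, against 36 of 569 (6.33%) and 39 of 544 (7.17%) in MeRIP replicates 1 and 2, had at least 1 block wholly outside the RefSeq span of the gene. For 1-block peaks the shares were between 0.395% and 0.820%. For 2-block peaks they were 7.49% and 1.30% in the m6A-ORL lists and 3.16% and 3.15% in the MeRIP lists. A peak with more blocks has more that can lie outside, and the part of block number was not tested.

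Peaks of 3 or more blocks made up 119 of 11022 peaks (1.08%, 0.895 to 1.29) in m6A-ORL replicate 1 and 457 of 7661 (5.97%, 5.45 to 6.52) in m6A-ORL replicate 2, against 673 of 20760 (3.24%, 3.01 to 3.49) and 641 of 20216 (3.17%, 2.93 to 3.42) in MeRIP replicates 1 and 2. The 2 MeRIP lists lie between the 2 m6A-ORL lists, the total RNA list being lowest and the polyA RNA list highest. Method means were 3.52% ± 3.45 for m6A-ORL and 3.21% ± 0.0502 for MeRIP (SD, n = 2 each; two-sided p = 1 by exact permutation of the libraries, where 2 against 2 cannot go below 0.333). Taking as many best-scored peaks from every list as the shortest list has, 7661, gave 1.34% and 5.97% in m6A-ORL replicates 1 and 2, against 5.70% and 5.69% in MeRIP replicates 1 and 2, and the mean difference, 0.316 percentage points over all peaks, was then -2.04. It was -2.13 without m6A-ORL replicate 2 and 2.76 without m6A-ORL replicate 1. All intervals are exact (Clopper-Pearson) 95% intervals, which cover counting error only.

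**Figure D1:**
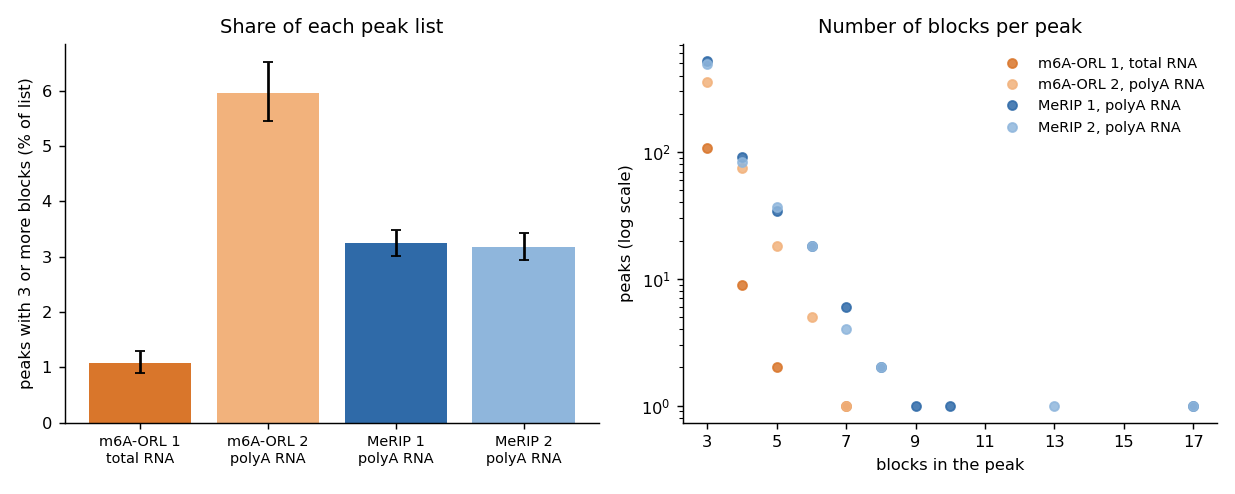
Left, peaks with 3 or more blocks as a percentage of each peak list, with exact 95% intervals; right, number of peaks (log axis) against the number of blocks for each list, with block numbers that no peak has left out. The share was 1.08% and 5.97% in the m6A-ORL lists and 3.24% and 3.17% in the MeRIP lists, and only MeRIP lists hold peaks of more than 7 blocks.

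Most of these peaks have exactly 3 blocks, 107 and 359 in m6A-ORL replicates 1 and 2 and 519 and 494 in MeRIP replicates 1 and 2. Peaks of 4 or more blocks numbered 12 and 98 in the m6A-ORL lists, against 154 and 147 in the MeRIP lists. The highest number was 7 blocks in each m6A-ORL list and 17 in each MeRIP list. Peaks just below the rule, with 2 blocks, had median summed block lengths of 151 and 151 nt in m6A-ORL replicates 1 and 2 and 271 and 270 nt in MeRIP replicates 1 and 2, and peaks just inside it, with 3 blocks, 181 and 211 nt and 391 and 421 nt.

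The share of multi-block peaks depended on peak length differently from list to list. Among peaks of 200 to 300 nt, 39 of 1803 (2.16%) and 136 of 1274 (10.7%) in m6A-ORL replicates 1 and 2 had 3 or more blocks, against 122 of 4216 (2.89%) and 95 of 4140 (2.29%) in MeRIP replicates 1 and 2. Among peaks of 500 nt or more, 2 of 221 (0.905%) and 53 of 186 (28.5%) did in the m6A-ORL lists, against 328 of 3687 (8.90%) and 329 of 3551 (9.27%) in the MeRIP lists. In both length classes m6A-ORL replicate 2 had the highest share. It is also the only polyA library of its method, so method, library and RNA type cannot be told apart here.

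Block sizes differed between the methods in the same direction in every pair of lists. The summed block length is the length of the peak with gaps left out. Its median was 181 and 241 nt in m6A-ORL replicates 1 and 2, against 480 and 510 nt in MeRIP replicates 1 and 2. Means of the library medians were 211 ± 42.4 nt for m6A-ORL and 495 ± 21.2 nt for MeRIP (SD, n = 2 each; exact permutation p = 0.333, the smallest possible). The medians of the methods did not overlap. Peaks of 1 block differed in the same direction, with medians of 121 nt in each m6A-ORL list and 210 nt in each MeRIP list. The 2-block medians given above did so too, so the shorter length is not particular to members. The difference of -284 nt was -549.5 nt among best-scored peaks and -486.25 nt among peaks of 4 or more blocks.

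Internal blocks, which are bounded by gaps on both sides, had medians of 92.5 nt (136 blocks) and 107 nt (586 blocks) in m6A-ORL replicates 1 and 2, against 121 nt (947 blocks) and 124 nt (903 blocks) in MeRIP replicates 1 and 2. The library medians averaged 99.8 ± 10.3 nt for m6A-ORL and 122.5 ± 2.12 nt for MeRIP (SD, n = 2 each; exact permutation p = 0.333). The difference of -22.75 nt was -37.25 nt among best-scored peaks. The methods differed most in the long internal blocks. Internal blocks of 300 nt or more made up 2.21% (0.457 to 6.31) and 2.39% (1.31 to 3.98) in the m6A-ORL lists, against 17.1% (14.8 to 19.7) and 17.5% (15.1 to 20.1) in the MeRIP lists. The longest was 387 and 908 nt in the m6A-ORL lists and 3381 and 3667 nt in the MeRIP lists. First and last blocks were shorter than internal ones, with medians of 38.5 and 45 nt in m6A-ORL replicates 1 and 2 and 70.5 and 76 nt in MeRIP replicates 1 and 2.

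**Figure D2:**
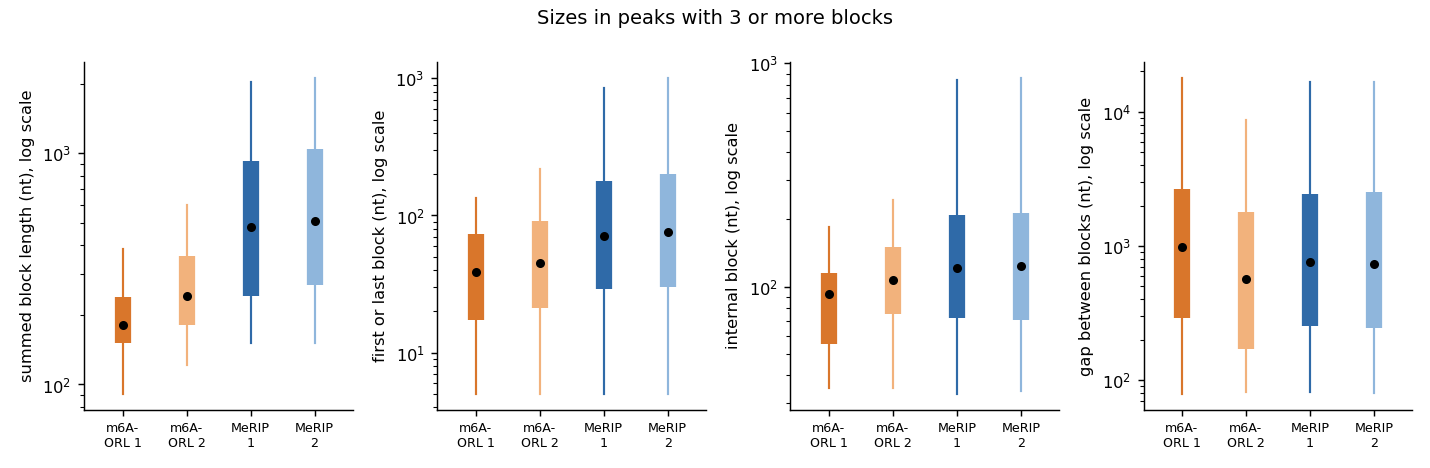
Sizes in nt (log axes) for peaks with 3 or more blocks in m6A-ORL and MeRIP replicates 1 and 2: dots are medians, thick bars the 25th to 75th percentiles, thin lines the 5th to 95th. Summed, terminal and internal blocks are shorter in both m6A-ORL lists, while the gap medians of the MeRIP lists, 763 and 733 nt, lie between those of the m6A-ORL lists, 985 and 567 nt.

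Small blocks were common. A block of 10 nt or less was present in 33 of 119 (27.7%) and 122 of 457 (26.7%) members in m6A-ORL replicates 1 and 2, and in 131 of 673 (19.5%) and 121 of 641 (18.9%) in MeRIP replicates 1 and 2. The smallest block was 1 nt long in every list. Summed block lengths fell on a grid: 96.6% and 96.1% of members in the m6A-ORL lists, against 83.4% and 81.0% in the MeRIP lists, were within 3 nt of a multiple of 30 nt. The grid is in the length with gaps left out. The sources used here do not give the peak caller or its step.

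Gaps between blocks had medians of 985 nt (255 gaps) and 567 nt (1043 gaps) in m6A-ORL replicates 1 and 2, against 763 nt (1620 gaps) and 733 nt (1544 gaps) in MeRIP replicates 1 and 2. The m6A-ORL medians enclose the MeRIP medians, and the means of 776 ± 296 nt and 748 ± 21.2 nt differed by less than the spread between libraries (SD, n = 2 each; exact permutation p = 1). The difference, 28 nt, was -181 nt without m6A-ORL replicate 1 and 237 nt without m6A-ORL replicate 2. Gaps shorter than 50 nt, below the length of most introns, numbered 9 and 10 in the m6A-ORL lists and 36 and 34 in the MeRIP lists. Gaps over 50000 nt numbered 3 and 7, against 22 and 19. Genomic spans had medians of 2857 and 2122 nt in the m6A-ORL lists, against 3609 and 3819 nt in the MeRIP lists.

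Among members, the longest gap of each MeRIP list was in KCNB2 or PTPRD. The longest gap among 2-block peaks of MeRIP replicate 2 was 367621 nt, as long as the KCNB2 gap of MeRIP replicate 1. KCNB2, a voltage-gated potassium channel gene on chromosome 8, had a member in MeRIP replicate 1 with gaps of 29756 and 367621 nt between blocks of 121, 672 and 17 nt. PTPRD, a receptor tyrosine phosphatase gene (chr9:8733932-9397462, minus strand, for the longer member), had 4 blocks in MeRIP replicate 1 and 5 in MeRIP replicate 2. Gaps of 160920, 164568 and 214085 nt, which separate blocks of 39, 60 and 14 nt, were identical in both. The replicate 2 member spans 663531 nt for 270 nt of blocks. The gene had 1 peak, of fewer than 3 blocks, in m6A-ORL replicate 1 and none in m6A-ORL replicate 2. In m6A-ORL replicate 1 the longest gap of a member, 150732 nt, was in HMGB1, a chromatin protein gene. That gap ended 2 nt before a RefSeq gene start.

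The next comparison asked how often a member was listed again in another library. Overlap was counted as at least 1 nt of blocks on the same strand. In m6A-ORL replicate 1, 24 of 119 members (20.2%, 13.4 to 28.5) were overlapped by a peak of m6A-ORL replicate 2, and 56 of 457 members (12.3%, 9.39 to 15.6) of m6A-ORL replicate 2 by a peak of replicate 1. In MeRIP, 636 of 673 (94.5%, 92.5 to 96.1) and 616 of 641 (96.1%, 94.3 to 97.5) members of replicates 1 and 2 were overlapped by the other replicate. Over all peaks the shares were 13.8% and 19.6% in m6A-ORL replicates 1 and 2 and 83.6% and 86.0% in MeRIP replicates 1 and 2. Members thus recurred above the share of all peaks in both MeRIP lists and below it in m6A-ORL replicate 2, while the interval of m6A-ORL replicate 1 reaches down to 13.4%. The 2-block peaks recurred at 16.5% and 12.7% in the m6A-ORL lists and at 88.0% and 90.9% in the MeRIP lists. They too lay above all peaks in MeRIP and below them in m6A-ORL replicate 2, so these directions are not particular to members.

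Overlap between methods was counted next. Either MeRIP library overlapped 32 of 119 members (26.9%, 19.2 to 35.8) of m6A-ORL replicate 1 and 152 of 457 (33.3%, 29.0 to 37.8) of replicate 2, below the 54.7% and 47.8% of all peaks of those lists. Either m6A-ORL library overlapped 328 of 673 members (48.7%, 44.9 to 52.6) of MeRIP replicate 1 and 318 of 641 (49.6%, 45.7 to 53.6) of replicate 2, above the 33.5% and 33.0% of all MeRIP peaks. For 2-block peaks the shares were 30.3% and 31.3% in m6A-ORL replicates 1 and 2, near those of members. In MeRIP replicates 1 and 2 they were 41.4% and 41.1%, also above all peaks. The directions are therefore not particular to members. Most overlapped MeRIP members met m6A-ORL peaks of fewer than 3 blocks: for 155 and 161 of the MeRIP members the m6A-ORL peak with most blocks there had 1 block, and for 72 and 57 it had 3 or more. When an overlap had to cover at least 50% of the summed block length, the mean share for MeRIP members was 15.7%, against 49.2% without that demand, and for m6A-ORL members 20.9%, against 30.1%. Within methods that demand gave 9.24%, against 16.2%, for m6A-ORL members and 92.9%, against 95.3%, for MeRIP members. The share over all peaks was not computed under that demand. MeRIP members are also longer than 1-block MeRIP peaks, with medians of 480 and 510 nt against 210 nt in each list. The part of length in these overlaps was not tested. Without m6A-ORL replicate 2 the mean for MeRIP members was 27.7%, and among best-scored peaks the mean for m6A-ORL members was 15.9%.

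**Figure D3:**
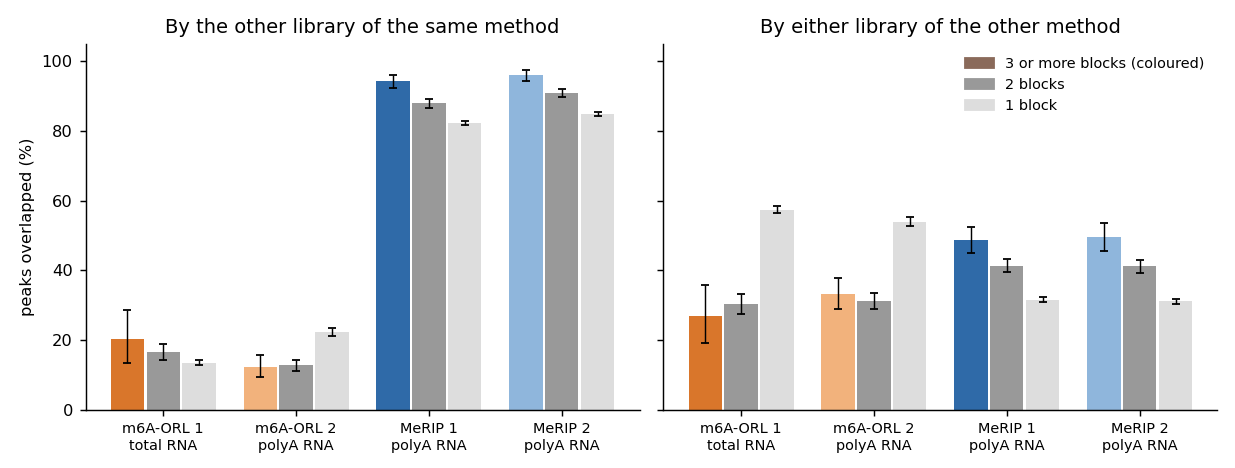
Percentage of peaks overlapped by the other library of the same method (left) and by either library of the other method (right), for peaks of 3 or more blocks (coloured), 2 blocks (dark grey) and 1 block (light grey) of each list, with exact 95% intervals. Members of both MeRIP lists sit above the 1-block peaks in both panels, while m6A-ORL members sit below the 1-block peaks in the right panel, at 26.9% and 33.3%. The 2-block m6A-ORL peaks sit near the members there, at 30.3% and 31.3%.

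Identical gaps were then counted. Members with at least 1 gap that was identical to the base in another list numbered 34 of 119 (28.6%) and 128 of 457 (28.0%) in m6A-ORL replicates 1 and 2, and 627 of 673 (93.2%) and 607 of 641 (94.7%) in MeRIP replicates 1 and 2. Among members that another list overlapped at all, these were 81.0% and 74.0% in m6A-ORL and 97.2% and 98.2% in MeRIP. Whether all lists took their block edges from the same gene annotation was not tested. Identical gaps in overlapping peaks are therefore not counted as independent agreement between libraries. Counted against the other method alone, 87.5% and 74.3% of overlapped m6A-ORL members and 49.1% and 46.5% of overlapped MeRIP members shared a gap. The method means over all members, 28.3% for m6A-ORL and 93.9% for MeRIP, were the same when ends could differ by 5 nt. For 4 or more blocks they were 43.9% and 98.3%, and without one MeRIP list the mean for the other was 23.1% or 23.9%. In MeRIP 82.7% and 86.7% of single gaps, and 68.9% and 75.2% of members with every gap, recurred in the other replicate, against 10.2% and 3.64% of gaps and 7.56% and 1.75% of members in m6A-ORL. For 2-block peaks, an identical gap in any other list was found for 25.4% and 22.3% in m6A-ORL replicates 1 and 2, and for 75.7% and 79.4% in MeRIP replicates 1 and 2.

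Merged over the lists, the members occupy 1254 places. Of these, 438 were found in both MeRIP lists and no other, 374 in m6A-ORL replicate 2 alone and 89 in m6A-ORL replicate 1 alone. Members of both methods met at 76 places, which is 13.9% of the 548 places with m6A-ORL members and 9.72% of the 782 with MeRIP members. Only 2 places had members in all 4 lists.

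Members carried 1114 Ensembl gene IDs, of which 943 (84.6%) could be paired with a RefSeq symbol by position and strand. The named ones include 899 protein-coding genes and 34 long noncoding RNA genes. Members were listed in 1 list for 604 IDs, in 2 for 435, in 3 for 72 and in 4 for 3. Both MeRIP lists shared 466 IDs and both m6A-ORL lists 17. Some places were counted under more than 1 ID: 16.0% and 8.53% of members in m6A-ORL replicates 1 and 2, and 11.9% in each MeRIP list, overlapped a peak of another ID on the same strand, against 5.55% to 6.26% of all peaks.

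The 3 genes with members in all 4 lists were ZC3H4, ACTB and BSG. ACTB, cytoplasmic beta-actin, had 1 member in each list on the minus strand of chromosome 7. Its blocks were 84, 81, 96 and 9 nt in m6A-ORL replicate 1 (chr7:5529899-5561860) and 84, 81 and 75 nt in replicate 2, against 54, 81, 96 and 9 nt in MeRIP replicate 1 and 24, 81, 96 and 9 nt in replicate 2. The gaps of 541, 10071 and 21080 nt were identical wherever present, and the last was absent from m6A-ORL replicate 2. The 81-nt block has the same edges in all 4 lists, while the block nearest the 3′ end, listed first since blocks are given in genomic order, is 84, 84, 54 and 24 nt long. RefSeq places ACTB between 5527148 and 5530601, so the gaps of 10071 and 21080 nt lie outside the RefSeq gene.

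BSG, the basigin membrane glycoprotein gene, had the same gaps of 985 and 2345 nt in m6A-ORL replicate 1 (chr19:571546-575085) and both MeRIP lists (chr19:571546-575055), with a whole internal block of 137 nt. The m6A-ORL replicate 2 member lay elsewhere in the gene, at chr19:581473-582776, with 4 blocks of 119, 25, 69 and 27 nt. ZC3H4, a zinc finger gene with a role in restraining noncoding transcription, had 1 member in each m6A-ORL list, against 3 and 2 in the MeRIP lists. Its m6A-ORL replicate 1 member of 5 blocks (chr19:47094604-47113776) and a 3-block MeRIP replicate 1 member shared gaps of 16286 and 1191 nt. Its m6A-ORL replicate 2 member of 4 blocks shared gaps of 600, 122 and 969 nt with members of 6 and 5 blocks in MeRIP replicates 1 and 2. A 3-block member of 3413 and 3354 nt at the gene's 3′ end was listed by MeRIP only.

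The peaks with most blocks were in type VI collagen genes, whose products form beaded filaments outside the cell. COL6A1 had a member of 17 blocks and 777 nt in MeRIP replicate 1 (chr21:45987651-45998399, plus strand) and of 13 blocks and 658 nt in MeRIP replicate 2. m6A-ORL replicate 2 had 3 members there, of 5, 4 and 3 blocks, and m6A-ORL replicate 1 had 1 peak and no member. The 5-block member shared its gaps of 99, 479, 93 and 350 nt with the MeRIP peaks. COL6A2 had a member of 17 blocks and 957 nt in MeRIP replicate 2 (chr21:46116389-46125296, plus strand), while MeRIP replicate 1 listed much of the same stretch as members of 10 and 5 blocks. The gene had 3 peaks and no member in m6A-ORL replicate 2.

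Exons that code for a collagen triple helix are known to be built from whole Gly-X-Y triplets, that is, in multiples of 9 nt. Of the 44 distinct internal blocks in members of collagen genes, 39 (88.6%, 75.4 to 96.2) had a length divisible by 9, against 218 of 1709 (12.8%, 11.2 to 14.4) in all other genes. COL6A1 had 15 such blocks of 18 and COL6A2 14 of 16, so these 2 genes hold most of the collagen blocks. COL3A1 had 3 of 3 and COL1A1 4 of 4. Gathering the collagen genes was decided after the blocks of COL6A1, COL6A2 and COL3A1 had been seen. Of the collagen genes with members, 4 had them in m6A-ORL replicate 1 only. COL1A1 had 4 members among 8 peaks there, COL1A2 1 among 2, COL3A1 1 among 2 and COL7A1, an anchoring fibril collagen, 1 among 1. COL27A1 went the other way, with 0 peaks in m6A-ORL replicate 1 and 1 member in each MeRIP list. COL1A1 had 1, 0 and 1 peaks in m6A-ORL replicate 2 and MeRIP replicates 1 and 2, and COL1A2, COL3A1 and COL7A1 had none in those lists.

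**Figure D4:**
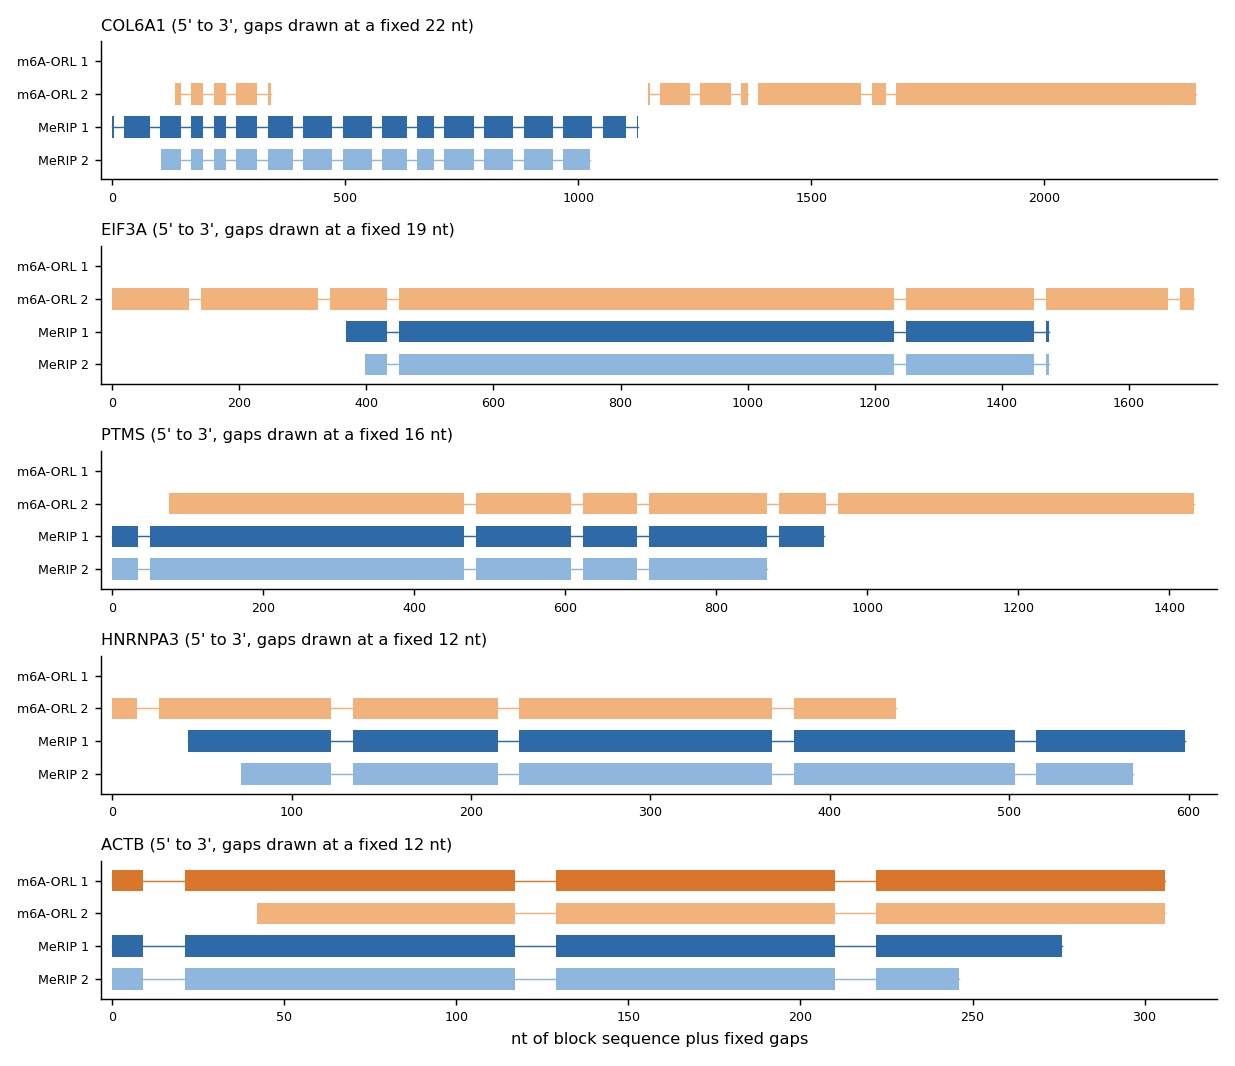
Blocks of members in COL6A1, EIF3A, PTMS, HNRNPA3 and ACTB, drawn 5′ to 3′ with m6A-ORL replicates above MeRIP replicates; block widths are to scale in nt on the horizontal axis, and every gap is drawn at the fixed width given in the panel title. In these chosen genes, the 779-nt block of EIF3A and the 81-nt block of ACTB have the same edges in every list with a member, while outer edges differ.

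Other genes with members by both methods shared whole internal blocks as well. They are examples, and over all members such sharing between methods was less common. Of overlapped internal blocks of MeRIP members, 19.5% to 24.2% had the same edges in an m6A-ORL list. Of those of m6A-ORL members, 37.7% to 54.5% had the same edges in a MeRIP list. Within methods the shares were 45.5% and 32.4% for m6A-ORL replicates 1 and 2, and 79.6% and 82.2% for MeRIP replicates 1 and 2. EIF3A, the largest subunit of translation initiation factor eIF3, had a 7-block member of 1589 nt in m6A-ORL replicate 2 (chr10:119036246-119050640, minus strand), against 4-block members of 1050 and 1020 nt in MeRIP replicates 1 and 2. The blocks of 202 and 779 nt and the gaps of 928, 3554 and 1281 nt are the same in all 3. PTMS, parathymosin, had 6 blocks and 1278 nt in m6A-ORL replicate 2 (chr12:6766360-6770863, plus strand), against 6 blocks and 862 nt and 5 blocks and 803 nt in the MeRIP lists. The internal blocks of 125 and 72 nt recurred in all 3 lists.

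HNRNPA3, an RNA-binding protein of the hnRNP A and B group, had 5 blocks in each of m6A-ORL replicate 2, MeRIP replicate 1 and MeRIP replicate 2, with summed lengths of 389, 508 and 449 nt and the gaps of 88, 764 and 1191 nt in common. HNRNPA2B1, its relative and an m6A reader, had 6 blocks and 631 nt in m6A-ORL replicate 2 (chr7:26192489-26196576, minus strand) and 3 blocks and 241 nt in MeRIP replicate 1, with gaps of 201 and 2017 nt shared. MYH9, the nonmuscle myosin heavy chain gene, had 1 member in m6A-ORL replicate 2, of 3 blocks and 569 nt, against 3 and 4 in the MeRIP lists, of 3 to 6 blocks. INCENP, a subunit of the chromosomal passenger complex, had 2 in m6A-ORL replicate 2 against 2 and 1, of up to 7 blocks in MeRIP replicate 1.

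SCAF1, which binds the tail of RNA polymerase II, had a 3-block member of 181 nt in m6A-ORL replicate 1. Its MeRIP members of 6 blocks and 3386 nt and of 5 blocks and 3356 nt hold an internal block of 2838 nt and the same gaps of 643 and 220 nt. EIF4G1, the eIF4F scaffold, had 2 members in m6A-ORL replicate 2 against 1 in each MeRIP list, and a whole block of 21 nt with gaps of 494 and 587 nt recurred in all 3.

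Several genes had members by 1 method only. TNRC18, a chromatin protein gene with trinucleotide repeats (chromosome 7, minus strand), had 6 members in each MeRIP list and none in m6A-ORL, although m6A-ORL replicates 1 and 2 had 2 and 9 peaks there. Its 8-block member of 2485 nt (chr7:5356978-5376185) was listed with the same blocks in both MeRIP replicates. HSPD1, the mitochondrial chaperonin HSP60, had a 3-block member in each m6A-ORL list (chr2:197499372-197500073 in replicate 1, minus strand), with the same gaps of 343 and 119 nt and blocks of 67, 98 and 75 nt and of 67, 98 and 46 nt. It had no peak in either MeRIP list. EEF2, the ribosome translocation factor, had members of 5 blocks and 835 nt and of 4 blocks and 537 nt in m6A-ORL replicate 2, and 1 peak but no member in m6A-ORL replicate 1, against 3 peaks and no member in each MeRIP list.

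Counted over the genes with a peak and a name, 433 of 7587 (5.71%) had a member by m6A-ORL and 605 of 8722 (6.94%) by MeRIP. The gene lists were read beside these shares, with no test of any list. With so few genes in a list, a count of 0 by MeRIP is not set apart from 6.94%. Among genes of the replication fork, which unwind and copy DNA, 9 of 22 with an m6A-ORL peak had a member, against 0 of 15 with a MeRIP peak. The 9 were CDC45, LIG1, MCM2, MCM3, MCM4, POLD1, POLD2, POLE and RFC2, and 8 of them had their member in m6A-ORL replicate 2. POLD1, the catalytic subunit of DNA polymerase delta, had 2 members among 6 peaks there, of 210 and 270 nt. RNA polymerase II subunit genes gave 3 of 7 against 0 of 6. POLR2F had a 6-block member of 598 nt, POLR2E 2 members of 150 nt each, and POLR2A, the largest subunit, 1 of 210 nt.

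Genes for pre-mRNA splicing had members by both methods. In the spliceosome core 8 of 21 genes had a member by m6A-ORL and 2 of 12 by MeRIP, and DDX23, a helicase of the U5 particle, had members of 241 nt in m6A-ORL replicate 1 and 211 nt in MeRIP replicate 1 with gaps of 1473 and 4733 nt in common. For SR and hnRNP splicing factors the counts were 9 of 28 and 4 of 22. Translation factor genes gave 7 of 26 and 2 of 12, with EIF3A and EIF4G1 the pair that had members by both methods. Glycolytic enzyme genes gave 4 of 13 (ALDOA, ENO1, PFKL and PGK1) and 0 of 5, and chaperone genes 4 of 21 (CCT3, CCT7, HSPD1 and HSPH1) and 0 of 11.

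Cytosolic ribosomal protein genes had members for 6 of 52 by m6A-ORL and 0 of 12 by MeRIP. Among them were RPL12, RPLP2, RPS10 and RPS21 in m6A-ORL replicate 2 and RPS4X in m6A-ORL replicate 1, each with 1 member of 3 blocks. Such genes have many pseudogene copies. Tubulin and actin genes gave 3 of 11 and 1 of 11, aminoacyl-tRNA synthetase genes 1 of 14 (FARSA) and 0 of 8, and proteasome genes 1 of 25 (PSMD3) and 1 of 11 (PSMC1). Genes of the m6A machinery gave 2 of 21 (9.52%) and 2 of 22 (9.09%), near the 5.71% and 6.94% over all named genes. By either method these were HNRNPA2B1 and PRRC2A, both readers. Chromatin regulator genes gave 7 of 35 by m6A-ORL and 10 of 34 by MeRIP. SMARCA4, a remodelling ATPase, had 3 members in m6A-ORL replicate 2 only, whereas SETD1B, a histone methyltransferase gene, had 2 and 3 in the MeRIP lists only (both named after their values were seen). The groups were not tested for the difference between methods, and peak numbers per gene differ between the lists.

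As a check of what a block is, 18 of 20 genes known to lack introns had peaks, 148 in all. None had 3 or more blocks, and 2 had 2 blocks, both in JUND, an AP-1 subunit gene. Markers of other cell types (ALB, APOA1, HBB, HBA1, PTPRC, CD3E, INS and GFAP) had 0 members, and peaks were listed for 2 of the 8, 1 by each method. Peak lists hold no expression level, so the labelled cell line was checked no further.

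Along the gene, the share of members in the last 10% was below that of 1-block peaks in all 4 lists. Peaks of named genes were counted only if their centre lay inside the RefSeq span. In m6A-ORL replicate 1 this kept 88 of 99 members and 8550 of 8616 1-block peaks. In m6A-ORL replicate 2 and MeRIP replicates 1 and 2 it kept 403 of 408, 550 of 569 and 524 of 544 members. The centre of 2 of 88 members (2.27%, 0.276 to 7.97) and 49 of 403 (12.2%, 9.13 to 15.8) fell in the last 10% of the gene span in m6A-ORL replicates 1 and 2, against 56 of 550 (10.2%) and 59 of 524 (11.3%) in MeRIP replicates 1 and 2. Of the 1-block peaks, 34.1% and 32.8% in the m6A-ORL lists and 39.8% and 39.5% in the MeRIP lists lay there. A peak within a single block cannot be a member, so part of this difference follows from the rule. The centre is also the midpoint of a genomic span that includes the gaps, and the part of span in this difference was not tested. The 2-block peaks were also below 1-block peaks there, at 9.91% and 15.3% in the m6A-ORL lists and 18.5% and 17.8% in the MeRIP lists. Between the lists, m6A-ORL replicate 1 had 47.7% of its members in the first 25% of the gene and replicate 2 had 16.9%, against 26.9% and 28.1% in MeRIP replicates 1 and 2. For 2-block peaks these shares were 49.3% and 28.6% in the m6A-ORL lists and 30.9% and 31.6% in the MeRIP lists, and for 1-block peaks 19.6% and 25.5%, against 18.9% and 19.3%. Chromosome 19, which is rich in genes with short introns, held 10.1% and 22.8% of members in the m6A-ORL lists and 15.5% and 15.6% in the MeRIP lists, against 6.15%, 13.7%, 8.85% and 8.67% of all peaks in the same order.

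**Figure D5:**
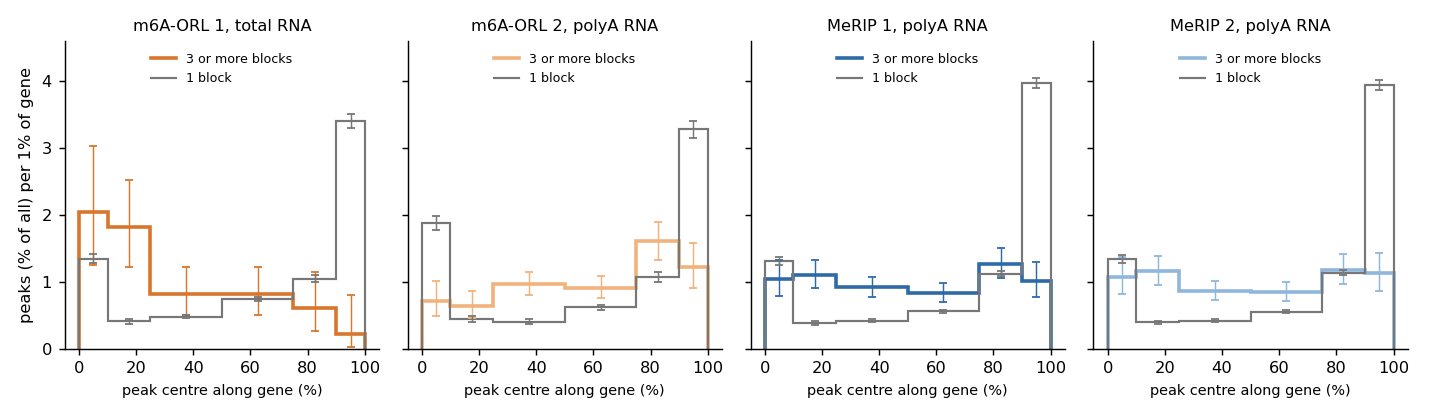
Percentage of peaks per 1% of gene span against the position of the peak centre from gene start to gene end, for peaks of 3 or more blocks (coloured) and of 1 block (grey) in each list, with exact 95% intervals. The 1-block peaks have their maximum in the last 10% of the gene in all 4 lists, at 34.1%, 32.8%, 39.8% and 39.5% of peaks, where members hold 2.27%, 12.2%, 10.2% and 11.3%.

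Members were among the better-scored peaks of their lists. The deposited score is smaller for stronger peaks, and members had median ranks at percentile 22.9 and 18.5 of the score order in m6A-ORL replicates 1 and 2, against 23.4 and 21.3 in MeRIP replicates 1 and 2. The 2-block peaks were at 46.9 and 41.8, against 37.9 and 36.0, and the 1-block peaks at 51.2 and 54.9, against 52.9 and 53.2. The order from 1 block to 3 or more was the same in all 4 lists. Peaks with more blocks are also longer, and the part of length in this order was not tested.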

How the data were processed

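Per the labels, 4 captured HEK-293T libraries and 3 inputs were sequenced; the inputs were not analysed here. The submitters' processing notes name Trim Galore, STAR, HOMER and the hg38 build, without roles or versions; the peak caller is not named in them. Each deposited list has 12 columns per peak (position, strand, Ensembl gene ID, score, block sizes and starts). The authors' deposited score, from 0 to 0.0081, is taken for a p-value (or q-value; nothing says which) and was used only to rank peaks within a list. Read depth is unknown. Exact duplicate lines (2, 1, 4 and 3 in m6A-ORL and MeRIP replicates 1 and 2) were removed, and peaks of at least 3 blocks were taken.

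Gene IDs were paired by position and strand with RefSeq (GRCh38.p14): 11061 of 13566 (81.5%) had at least 90% of peak bases in a single gene span, or 50% where a single gene was touched. Genes were named by rule: the 12 with members in most lists and the 3 members with most blocks in each list. The rule also took the 3 longest gaps of members and up to 3 genes of each gene list. Other genes were named beside a count of their group or after their values were seen. The members and lists were chosen with earlier results of these data known. Shares have exact (Clopper-Pearson) 95% intervals. Library values were compared by exact permutation over the 4 libraries. The overlap count was tested on simulated data. Alternatives were other block minimums, joined short gaps, best-scored peaks, kept duplicates, stricter or looser matching, libraries left out and a replicate block. Python 3.11.15, numpy 2.4.6, scipy 1.17.1 and matplotlib 3.10.9 were used. Some items that the naming rule picks are not reported here.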

Additional observations from a re-analysis of the deposited data

How the results depend on the processing

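Differences are m6A-ORL minus MeRIP. The difference in the share of peaks was -0.0404 percentage points for 4 or more blocks and -2.04 for best-scored peaks, and ran from -2.13 to 2.76 without single libraries (-2.13 without m6A-ORL replicate 2). The gap difference ran from -181 nt (without m6A-ORL replicate 1) to 237 nt. Differences in internal block and summed length kept their sign under every alternative run, from -30 to -15.5 nt and from -314 to -254 nt without single libraries. For 4 or more blocks, overlap within the method was 23.8% for m6A-ORL and 98.3% for MeRIP members, overlap by the other method 40.7% and 59.2%, and identical gaps 43.9% and 98.3%. For best-scored peaks, overlap by the other method was 15.9% and 60.02% and identical gaps 22.0% and 95.2%. With 50% of the length demanded, overlap was 9.24% and 92.9% within and 20.9% and 15.7% between methods. Without single libraries, overlap between methods ran from 24.4% to 33.3% and from 27.7% to 49.6%, and identical gaps from 23.5% to 27.4% and from 23.1% to 93.9%. Overlap within a method has no value without either of its libraries. The causes were not tested. Of the 50 alternatives that leave out no library, 34 counted as unchanged. For differences between methods this asked only for the same direction, since p cannot go below 0.333, and size was not judged. For shares of overlap and identical gaps it asked for a mean within the SD of the main one. Replicates share only a number: with the replicate block the differences are the same (0.316, 28, -22.75 and -284), with exact sign-flip p = 1, 1, 0.5 and 0.5. Read depth is unknown, so an absent peak is not an absent modification.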
